A study of Mus musculus with 80 samples.

Results

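Pgr-Cre deletion of Kdm6b at implantation sites (IS) on GD14.5 (GD, gestation day) was examined through H3K27me3, the trimethylated lysine 27 of histone H3, in fibroblasts purified from the mouse uterus. The comparison set the pooled peak list of Pgr-Cre Kdm6b f/f females, called cKO here, against the pooled list of Kdm6b f/f controls, both mated to B6 males. Its members were the 6 samples that the labels place in these groups, 3 cKO and 3 control, of 80 samples in the series, and they enter 2 of the 12 lists of the Kdm6b set. The other lists form 5 pairs of cKO and control, which are Pgr-Cre at GD5.5, GD8.5 and GD14.5 between implantation sites (IIS), Pgr-Cre at GD18.5 IS, and Pdgfra-Cre at GD14.5 IS. Pgr-Cre follows the progesterone receptor gene, whose activity in the uterus is not limited to fibroblasts, and Pdgfra-Cre follows a receptor gene of mesenchymal cells. A further Pgr-Cre library of this day and site carries the title of an input but the H3K27me3 antibody in its labels. It was not counted as a member. The pooled list was used as deposited, so any part of that library in its peak calls could not be checked. The fibroblasts were freed by enzyme digestion of myometrium and endometrium and taken with magnetic beads, and their chromatin was profiled by CUT&RUN, where a nuclease tethered to an antibody releases marked fragments.

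H3K27me3 is laid down by Polycomb repressive complex 2 and is known for broad domains over silent developmental genes and over the inactive X chromosome of females. Kdm6b encodes a demethylase that removes the mark. In the pregnant uterus, stromal fibroblasts and muscle pass from a progesterone-dominated quiet state to labour, when prostaglandin, oxytocin and chemokine genes are known to act.

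Samples were pooled within each group for peak calling, so each side has 1 list, no value has a replicate error, and no test of this pair alone was possible. Read depth is unknown, and all values depend on lenient peak calls, whose lowest -log10 p was 0.349 in the cKO list and 0.344 in the control list, with a median fold over background of 1.13 and 1.12. The peak names of both lists carry a version mark that those of the other 10 lists lack, and the sources used here do not say whether calling settings differed. Coverage below is the share, in percent, of a gene plus 2 kb of flank at each end (mm10) that peaks occupy, and differences are cKO minus control in percentage points. Gained and lost genes are those whose difference reached 50 points up or down. The cKO list held 287629 peaks over 740 Mb, and the control list 236175 peaks over 702 Mb. Of the cKO peaks, 65.2% overlapped a control peak by at least 1 bp, and 73.8% of control peaks overlapped a cKO peak.

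The gene labels could be checked only in part, since a broad mark does not show a deletion. Kdm6b had a coverage of 6.29% in the cKO list and 5.31% in the control list, within the 0 to 7.10% of the 12 lists. Pgr had no peak in any of the 12 lists. Pdgfra, a fibroblast receptor, had 21.7% in the cKO list and 22.6% in the control list. The 15 fibroblast identity genes averaged 5.07% in the cKO list and 5.74% in the control list, and 10 of them had no peak in either. Mean coverage of 16 epithelial markers was 81.9% in the cKO list and 77.6% in the control list, and that of 20 immune markers was 66.9% and 64.0% in the same lists. Mean coverage of 16 endothelial markers was 53.4% in the cKO list and 47.9% in the control list. The 17 trophoblast markers averaged 44.5% in the cKO list and 45.5% in the control list, and the 10 smooth muscle markers 23.2% and 26.4% in those lists. The 20 broadly active genes averaged 2.41% in the cKO list and 2.98% in the control list. Fibroblast genes thus carried little of the mark in both lists and genes of most other cell types carried more.

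The first question was how far the mark extended along each chromosome. Peaks covered more of every autosome and less of the X chromosome in the cKO list. On the 19 autosomes the log2 ratio of cKO over control length ran from 0.089 on chromosome 7 to 0.27, with a median of 0.17. On the X, 52.4 Mb lay inside peaks in the cKO list, against 90.1 Mb in the control list, a log2 ratio of -0.78. The X was also lower in the cKO list of each of the other 5 pairs, with log2 ratios of -0.44 (GD14.5 IIS) to -0.16 (GD5.5 IIS), which average -0.27 ± 0.11 (SD, n = 5). The covered X length of this cKO list was the lowest of the 12 lists, in which the other 11 ranged from 63.3 to 90.1 Mb. At equal covered length, where each list was reduced to its 487 Mb of peaks with the lowest p, 23.4 Mb of the X lay inside peaks in the cKO list and 54.4 Mb in the control list. The gain in total length did not hold for stronger peaks: at a -log10 p of at least 1 the log2 ratio of all covered length was -0.090, against 0.074 for all peaks.

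**Figure D1:**
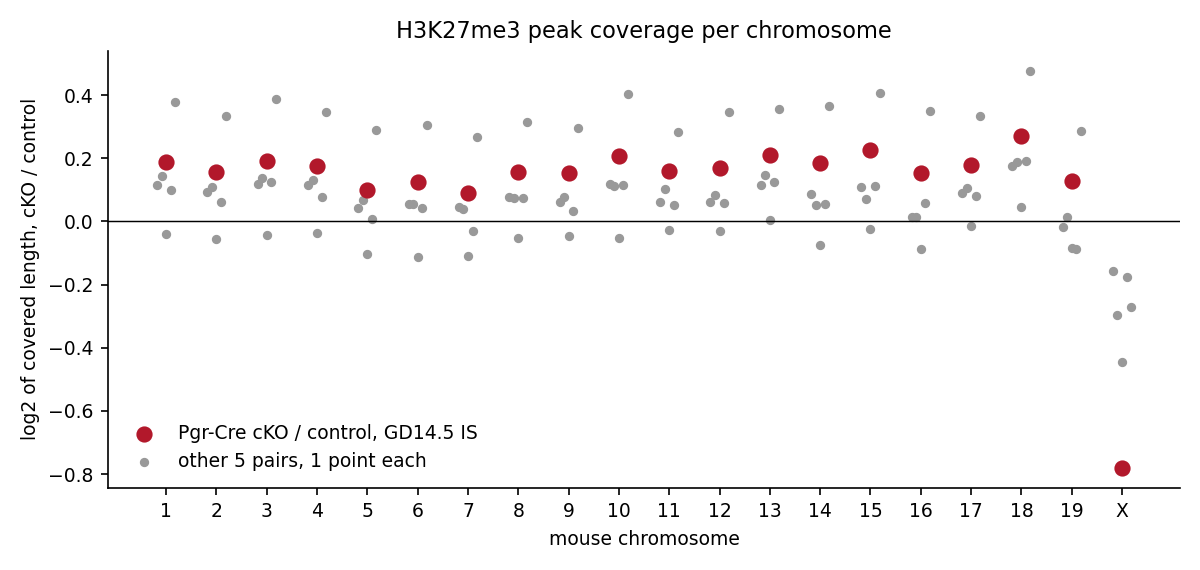
Log2 ratio of the length inside H3K27me3 peaks, cKO over control, for each chromosome on the x axis; large points are the Pgr-Cre GD14.5 IS pair and small points the other 5 pairs. All 19 autosomes of the pair lie above 0, between 0.089 and 0.27, and its X at -0.78 lies below the X of the other pairs, at -0.44 to -0.16.

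On the X, peak width differed more than peak number. The cKO list held 30880 X peaks with a median width of 971 bp, and the control list 33178 with a median of 1543 bp. On autosomes the median width was 1139 bp in the cKO list and 1181 bp in the control list. Peaks of at least 20 kb on the X numbered 89 in the cKO list and 218 in the control list. In 10-kb bins the same picture held: 3728 of 263115 bins (1.42%) were lost, and 2712 of these lay on the X, where 15.9% of all bins were lost, against 0.413% of autosomal bins. By contrast 4883 bins (1.86%) were gained, of which 4879 were autosomal.

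The longest runs of neighbouring lost bins lay on the X, with or without a gene inside. The longest, chrX:169170001-169280000 in mm10, spans 110 kb over Amelx, which encodes an enamel protein, and Arhgap6, and had 7.85% inside peaks in the cKO list, against 79.1% in the control list. A further run, chrX:100190001-100290000, lies over Eda, an ectodermal signalling ligand, with 20.4% in the cKO list and 84.2% in the control list. Runs over Sytl5 (with H2al3 and H2ap) and over Klhl13 spanned 90 kb each, and a run of 80 kb held no protein-coding gene. Of the 58 lost runs of at least 5 bins, 57 lay on the X and 30 held no protein-coding gene. Of all lost bins, 39.6% touched a protein-coding gene, against 44.7% of all bins. In all other 5 pairs 53 of the runs were also lower in the cKO list, as was the covered length of the whole X. Among single bins, 82.2% of the lost ones were lower in the Pdgfra-Cre cKO list than in its control, against 17.7% of all bins.

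Gained bins lay mostly outside genes. Only 23.4% of them touched a protein-coding gene, against 44.7% of all bins. The 57 gained runs of at least 5 bins were all autosomal, and 50 held no protein-coding gene. The longest, chr7:71170001-71250000, had 73.4% inside peaks in the cKO list and 2.21% in the control list, with the nearest protein-coding genes 585 kb and 828 kb away. The next, chr13:101570001-101640000, had 76.2% in the cKO list and none in the control list, and ends 40.8 kb from Pik3r1, which encodes a regulatory subunit of PI3 kinase. The runs at chr13:41870001-41940000 and chr4:55920001-55990000 had 73.4% and 77.4% in the cKO list, against 4.44% and 10.8% in the control list. All 57 gained runs were also higher in the cKO list of each other pair. Among single bins, 98.3% of the gained ones were higher in the Pdgfra-Cre cKO list than in its control, against 35.9% of all bins.

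The strongest peaks were nearly missing from the cKO list. Where the -log10 q reached 2 or more, peaks numbered 121 over 0.385 Mb in the cKO list and 846 over 14.6 Mb in the control list, on the autosomes and the X. The cKO length was the lowest of the 12 lists, in which the other 11 ranged from 2.27 to 33.6 Mb. The log2 ratio was -5.25, and in the other 5 pairs it ran from -3.03 (Pdgfra-Cre) to 0.51 (GD14.5 IIS). Of the 121 strong cKO peaks, 71 overlapped a strong peak in all 12 lists, the 20 with the highest fold among them. The regions themselves kept weaker peaks: 97.3% of the length of the 846 control domains lay inside some cKO peak and 95.6% inside a cKO peak with a -log10 p of at least 1, but 2.28% inside a strong one. In the Pdgfra-Cre cKO list 26.8% of their length lay inside strong peaks, and in the control list of that set 88.8%. Among the widest of these control domains are some over developmental genes, such as 49531 bp at chr7:140043406-140092936 over Msx3, a homeobox gene, with Caly. Another, chr15:98766609-98812153, spans the Wnt ligand genes Wnt1 and Wnt10b with Ddn, and chr2:31624095-31668530 holds Prdm12, a neuronal regulator. Others of similar width lie over Tph1 with Sergef, over the apolipoprotein genes Apoa1, Apoa4, Apoa5 and Apoc3, or over no protein-coding gene. The first 3 domains were 99.7%, 100% and 100% covered by cKO peaks of any strength, and none held a strong cKO peak.

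The next question was which genes gained or lost the mark. Of 21631 protein-coding genes, 48 (0.222%) were gained and 208 (0.962%) were lost. No gained gene was X-linked, and 103 of the lost ones were, of 966 X-linked genes. The 2 control lists of GD14.5 IS hold different samples and give a size of difference without a deletion. In the control list used here, 65 genes (0.3%) were at least 50 points higher than in that of the Pdgfra-Cre set, and 9 (0.0416%) at least 50 points lower. Of these 2 lists only the one used here carries the version mark, and whether calling settings differed is not known. The sign of that contrast is arbitrary, and the control list used here comes first in it but is subtracted in cKO minus control. With this list subtracted in both, 48 gained genes stand beside 9 and 208 lost genes beside 65. The Pdgfra-Cre pair had 49 gained genes (0.227%) and 31 lost genes (0.143%). Just inside the threshold stood Olfr1417 at 50.2 and Magea4 at -50.1 points, and just outside it Prr23a2 at 49.5 and Eda at -49.997.

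**Figure D2:**
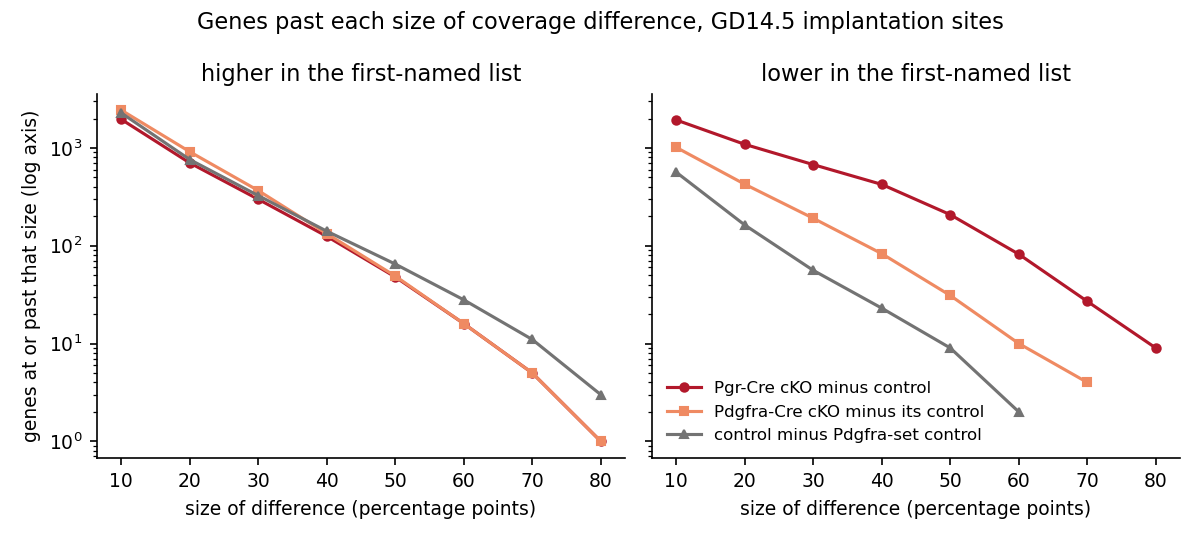
Number of genes on a log axis whose coverage difference reaches each size on the x axis, for Pgr-Cre cKO minus control, Pdgfra-Cre cKO minus its control, and control minus the control of the Pdgfra-Cre set, all at GD14.5 IS. At 50 points the lines for higher coverage stand at 48, 49 and 65 genes and those for lower coverage at 208, 31 and 9, and with the sign of the last contrast turned its 65 belongs beside the 208 and its 9 beside the 48.

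Most autosomal losses depended on the control list. Set against the control list of the Pdgfra-Cre set, 88 of the 103 lost X-linked genes and 37 of the 48 gained genes still passed 50 points, but 7 of the 105 lost autosomal genes did. Of those 105, 72 were olfactory, vomeronasal or taste receptor genes, which are silent outside sensory cells. The 1110 olfactory receptor genes averaged 22.0% in the cKO list and 31.2% in the control list, and in the Pdgfra-Cre pair they averaged 22.3% in the cKO list and 23.4% in its control list. The 230 type 1 vomeronasal genes averaged 12.3% in the cKO list and 18.99% in the control list, and 12.3% and 14.8% in the cKO and control lists of the Pdgfra-Cre pair. The 2 control lists thus differed over these families by more than the Pdgfra-Cre lists did.

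The other 5 pairs use neither of these lists, and were taken as independent of them, though the titles do not say whether samples share females. In them limma called 415 of 10168 tested genes (4.08%) raised and 257 (2.53%) lowered at an adjusted p under 0.05. Of the 48 genes gained here, 47 were tested there and 13 (27.7%) were raised, and none was lowered. Of the 103 lost X-linked genes 28 (27.2%) were lowered, against 11.8% of all tested X-linked genes. Of the 105 lost autosomal genes 13 (12.4%) were lowered, against 1.71% of all tested autosomal genes. Conversely, 402 of the 415 raised genes (96.9%) had a positive difference here, against 51.0% of all tested genes, and 237 of the 257 lowered genes (92.2%) had a negative one, against 41.6%. Leaving out a single pair brought the raised genes down to between 0 (without GD18.5 IS) and 156 (without Pdgfra-Cre), and the lowered ones to between 0 (without GD8.5 IIS or GD18.5 IS) and 203 (without Pdgfra-Cre). Of the genes gained here, 12 were also gained in the Pdgfra-Cre pair, which is 25% of the 48 and 24.5% of the 49. Of the genes lost here, 11 were lost there, which is 5.29% of the 208 and 35.5% of the 31. More of the 208 were also lost in 2 Pgr-Cre pairs, 55 (26.4%) at GD14.5 IIS and 41 (19.7%) at GD18.5 IS. Fewer of the 48 were also gained in those pairs, 5 (10.4%) in each.

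Among genes with windows of at least 10 kb, 5 passed a gain of 50 points both as deposited and at equal covered length. Bbox1, which encodes the last enzyme of carnitine synthesis, had 73.5% in the cKO list and 6.02% in the control list. In the other 5 pairs Bbox1 averaged a difference of 51.8 ± 13.5 points (SD, n = 5; limma adjusted p = 0.020). Its gene lies at chr2:110264056-110314813, and the figure of differences by pair shows differences of 31.9 to 66.4 points in those pairs. Cpa1, a carboxypeptidase gene of the pancreas, had 96.1% in the cKO list and 31.2% in the control list, and 62.9 ± 24.5 points in the other pairs (SD, n = 5; limma adjusted p = 0.040). P2ry6, a receptor for extracellular UDP, had 84.5% in the cKO list and 26.2% in the control list, and Tekt3, a tektin of the sperm tail, 77.8% and 26.7% in those lists. Both were raised in the other pairs, by 35.9 and 40.97 points (limma adjusted p = 0.021 for each). The fifth, ccdc198, had 90.1% in the cKO list and 31.9% in the control list, and was not called in the other pairs (28.8 ± 21.2 points, SD, n = 5; limma adjusted p = 0.12).

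Promoter sequences are shown for Bbox1, for Slco2a1, a gene of labour 41.8 points higher in the cKO list, and for the lost genes Cdx2 and Cylc1, since the mark differed over their starts and since promoters rich in the dinucleotide CG are known to hold Polycomb domains. They come from RefSeq (mm10), run from 250 bases before to 50 after an annotated start on the gene's strand, and have each CG in capitals.
Bbox1: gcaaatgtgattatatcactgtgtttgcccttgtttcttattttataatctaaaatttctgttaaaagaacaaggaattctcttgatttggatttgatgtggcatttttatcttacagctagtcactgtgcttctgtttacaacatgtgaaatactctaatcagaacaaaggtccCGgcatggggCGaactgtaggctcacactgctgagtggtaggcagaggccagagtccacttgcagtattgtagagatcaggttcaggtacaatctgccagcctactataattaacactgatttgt
Slco2a1: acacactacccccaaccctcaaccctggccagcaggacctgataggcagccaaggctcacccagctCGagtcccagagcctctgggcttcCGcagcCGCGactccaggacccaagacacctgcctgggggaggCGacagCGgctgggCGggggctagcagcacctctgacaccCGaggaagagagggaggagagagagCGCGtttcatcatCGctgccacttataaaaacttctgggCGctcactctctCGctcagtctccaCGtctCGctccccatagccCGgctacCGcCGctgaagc
Cdx2: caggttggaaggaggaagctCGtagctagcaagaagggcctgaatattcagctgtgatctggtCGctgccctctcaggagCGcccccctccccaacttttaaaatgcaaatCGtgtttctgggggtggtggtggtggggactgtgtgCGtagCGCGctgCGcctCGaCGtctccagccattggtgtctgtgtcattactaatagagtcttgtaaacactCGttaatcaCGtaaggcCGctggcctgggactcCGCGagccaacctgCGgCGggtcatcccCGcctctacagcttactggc
Cylc1: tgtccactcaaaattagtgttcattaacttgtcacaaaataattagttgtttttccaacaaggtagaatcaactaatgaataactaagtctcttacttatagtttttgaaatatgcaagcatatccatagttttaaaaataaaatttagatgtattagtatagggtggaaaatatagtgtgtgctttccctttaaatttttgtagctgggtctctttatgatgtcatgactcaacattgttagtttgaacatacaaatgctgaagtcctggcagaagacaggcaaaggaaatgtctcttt
The Bbox1 sequence lies at chr2:110305676-110305975 on the minus strand and holds 2 CG. That of Slco2a1 lies at chr9:103008237-103008536 on the plus strand and holds 18. The Cdx2 sequence lies at chr5:147307200-147307499 on the minus strand and also holds 18, and that of Cylc1 lies at chrX:111110168-111110467 on the plus strand and holds none. Of 17274 promoters read, the median was 14 CG, and 95.0% held at least 1. Within 1 kb of these starts, Bbox1 lay inside peaks over 100% in the cKO list and 9.85% in the control list, and Slco2a1 over 99.9% and 42.9% in those lists. For Cdx2 these shares were 0% in the cKO list and 62.8% in the control list, and for Cylc1 0% and 72.1%. In the control list of the Pdgfra-Cre set they were 95.65% for Slco2a1, 60.5% for Bbox1, 41.4% for Cdx2 and 100% for Cylc1, so the difference over the Slco2a1 start was small against that list.

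Coverage around starts differed with base composition. The 1668 autosomal promoters with at most 40% G and C averaged 18.9% in the cKO list and 24.6% in the control list. The 1932 promoters with over 70% averaged 27.6% in the cKO list and 24.2% in the control list. The lower coverage of the first class was also present in each of the other 5 pairs, at differences of -9.998 to -0.025 points. The control list was itself 6.04 points above the control of the Pdgfra-Cre set in that class. Lost autosomal genes had a median promoter G and C content of 39.0%, gained genes 50% and all genes 56.3%, and the part of base composition in the gains and losses was not tested.

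Genes of contraction and parturition had more of the mark in the cKO list as deposited. Of 37 measured, 22 had a positive and 8 a negative difference, with a median of 3.03 points. Over all 21631 genes the median was 0, with 7428 (34.3%) positive and 5234 (24.2%) negative. Genes without a peak in either list numbered 8310 of all genes and 7 of the 37. They lower both shares over all genes and pull that median to 0, so the baseline is not like the list. At equal covered length the list's median was 0 and its mean difference 5.98 points. No member passed 50 points, and 5 passed 25 points, which 453 of all genes (2.09%) did. None was lower by 25 points, as 839 of all genes (3.88%) did. Slco2a1, the prostaglandin transporter, had 72.3% in the cKO list and 30.5% in the control list. In the other 5 pairs it averaged a difference of 32.3 ± 8.29 points (SD, n = 5; limma adjusted p = 0.020). Ednrb, an endothelin receptor, had 66.3% in the cKO list and 25.9% in the control list, and 10.9 ± 7.59 points in the other pairs (SD, n = 5), which did not pass there (limma adjusted p = 0.11). Casq2, a calcium store protein of muscle, had 53.1% in the cKO list and 13.9% in the control list, and was not called in the other pairs (21.7 ± 11.7 points, SD, n = 5; limma adjusted p = 0.068). Adra1a, the alpha-1A adrenergic receptor gene, had 53.0% and 18.9% in those lists, and 14.6 points in the other pairs (limma adjusted p = 0.042). Oxtr, the oxytocin receptor gene, had 25.7% in the cKO list and 14.1% in the control list, chosen for its known role after its values were seen. Gja1, which encodes the gap junction protein of labour, had 1.14% in the cKO list and none in the control list, named in the same way.

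Channel genes had a similar balance as deposited, which was not kept at equal covered length. Of 45 voltage-gated and potassium channel genes, 28 had a positive and 13 a negative difference, with a median of 3.37 and a mean of 3.39 points, against a median of 0 and a mean of -1.09 at equal covered length. Kcnn3, the small-conductance channel SK3, had 34.1% in the cKO list and 3.59% in the control list, a difference that was 4.41 points at equal covered length. Kcnk2, a 2-pore channel, had 31.7% in the cKO list and 5.64% in the control list, and Kcnma1, the large-conductance channel, 30.2% and 5.24% in those lists. All 3 were raised in the other pairs, by 21.3, 19.2 and 21.4 points (limma adjusted p = 0.041, 0.029 and 0.014). Kcna4 had less, at 42.8% in the cKO list and 67.5% in the control list.

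Chemokine and inflammation genes had the highest mean difference of the 20 lists. Their 43 measured members averaged 59.4% in the cKO list and 48.4% in the control list, the cKO mean being the highest of the 12 lists, with 25 positive and 7 negative differences and a median of 2.57 points. The median was 0 and the mean difference 9.02 points at equal covered length. Gained genes among them numbered 4, and all are neighbours in the Ccl cluster of chromosome 11, so they share their source. Their differences of 52.8 to 62.2 points weigh on the list's mean, and its rank without them was not computed. By median the list stood below the contraction and parturition genes, at 2.57 against 3.03 points. Ccl8 had 75.4% in the cKO list and 13.2% in the control list, and Ccl11, which encodes an eosinophil attractant, 73.8% and 16.7% in those lists. Ccl7 and Ccl12, monocyte attractants, had 54.0% and 52.8% in the cKO list and none in the control list. Over the whole stretch from Ccl2 to Ccl8 (chr11:82035577-82116799), 57.7% lay inside peaks in the cKO list and 8.93% in the control list. The other 5 cKO lists had 12.5 to 32.2% there, and their control lists 4.07 to 21.7%. Ccl11 differed by -10.8 points on average in the other pairs, where it was not called (limma adjusted p = 0.27). At equal covered length Ccl8 had no difference, and Ccl11 one of 73.8 points. Of the 43 members, none was raised or lowered in the other 5 pairs, of 34 tested.

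Steroid and prostaglandin enzyme genes differed in both directions, with 12 positive and 11 negative differences of 33. A pair of neighbouring genes of the 3-beta-hydroxysteroid dehydrogenase family, which make progesterone from pregnenolone, were lost. Hsd3b1 had 15.8% in the cKO list and 68.6% in the control list, and Hsd3b6 8.03% and 61.7% in those lists. In the control list of the Pdgfra-Cre set the values were 29.4% and 30.5%, so against it the differences were -13.5 and -22.5 points and neither reached 50. Hsd3b1 differed by -30.04 points and Hsd3b6 by 0 at equal covered length. Hsd3b6 was lowered in the other pairs by 36.8 points (limma adjusted p = 0.048), and Hsd3b1 missed the threshold there (limma adjusted p = 0.094). Hsd11b1, which regenerates active glucocorticoid, had 50.5% in the cKO list and 18.98% in the control list. It was raised in the other pairs by 37.03 ± 2.82 points (SD, n = 5; limma adjusted p = 0.013). Among 30 decidua genes 15 differences were positive and 6 negative. Lif, the implantation cytokine, had 47.3% in the cKO list and 17.5% in the control list. Hand2, a progesterone-driven stromal factor, had 25.2% and 0% in those lists. In the control list of the Pdgfra-Cre set Hand2 had 23.6%, so its difference against that list was 1.55 points, while that of Lif was 31.8. Hand2 was higher in the cKO list of 2 of the other 5 pairs and lower in 2. Neither gene was called in the other pairs (limma adjusted p = 0.46 for Lif and 0.95 for Hand2).

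Progesterone response genes and matrix genes differed at single members. Mt2, a metallothionein, was gained, with 73.8% in the cKO list and 5.90% in the control list. Its difference was 48.97 points at equal covered length and 36.2 points against the control list of the Pdgfra-Cre set. In the Pdgfra-Cre pair Mt2 differed by -14.5 points, and it was not called in the other pairs (8.88 ± 18.2 points, SD, n = 5; limma adjusted p = 0.52). The other 29 progesterone response genes differed by 25.2 points or less. Col8a1, a short-chain collagen, had 59.4% in the cKO list and 16.0% in the control list, and was raised in the other pairs by 30.9 points (limma adjusted p = 0.022). Mmp13, a collagenase, had 63.6% in the cKO list and 96.8% in the control list. Across 42 matrix genes the median difference was 0. Among 29 Polycomb and demethylase genes, X-linked Rbbp7, a histone-binding subunit of Polycomb repressive complex 2, had 18.3% in the cKO list and 62.8% in the control list. Cbx8, a subunit of Polycomb repressive complex 1, had 87.9% in the cKO list and 57.7% in the control list.

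**Figure D3:**
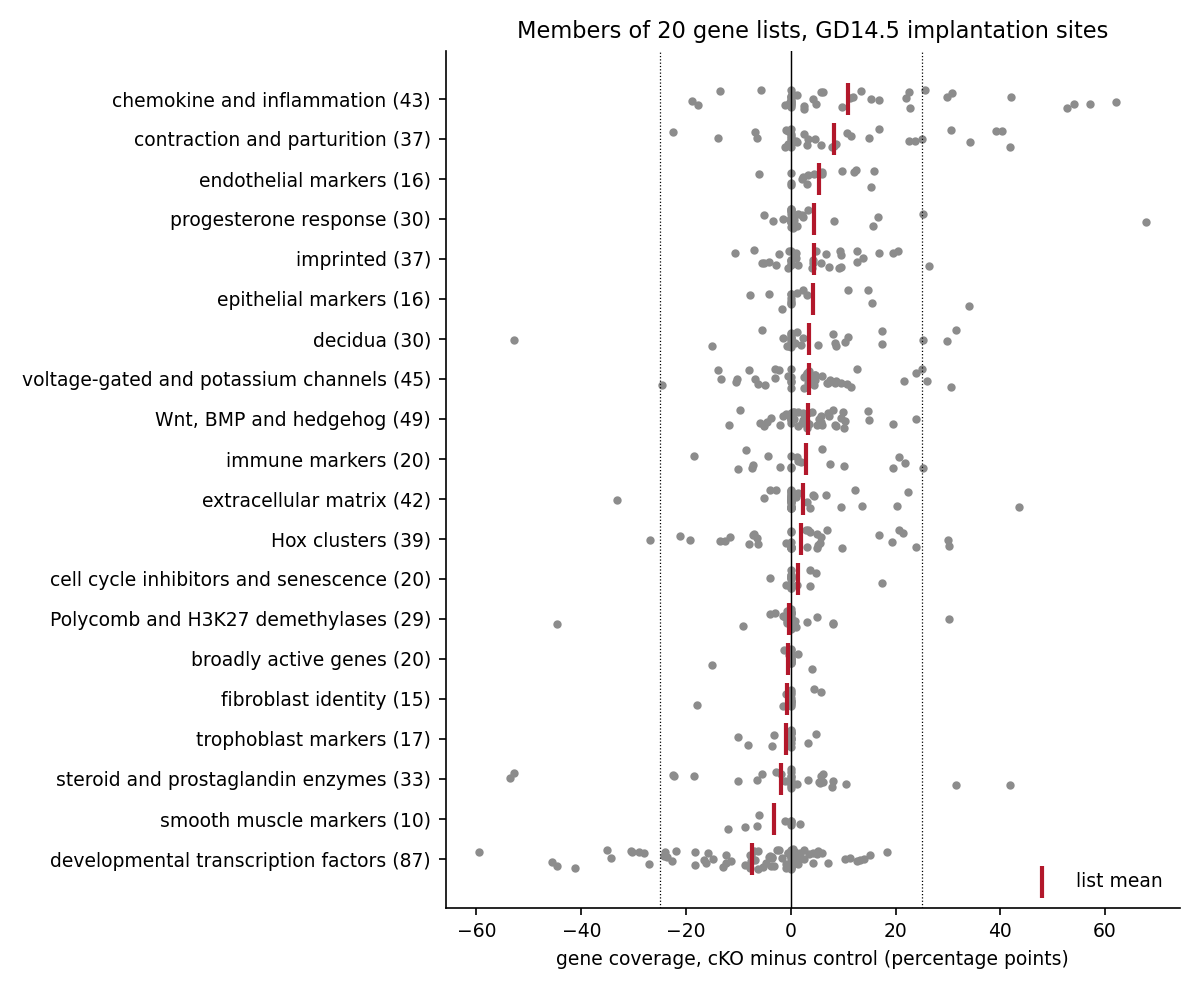
Coverage difference, cKO minus control, of each member (grey points) of 20 gene lists on the y axis, with the number measured; red bars mark list means and dotted lines 25 points. List means run from -7.33 for developmental transcription factors to 10.9 for chemokine and inflammation genes.

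Developmental transcription factor genes had less of the mark in the cKO list. Their 87 members averaged 70.9% in the cKO list and 78.2% in the control list, with 50 negative and 22 positive differences, a mean of -7.33 and a median of -2.61 points. The cKO mean was the lowest of the 12 lists, and the control mean the next, below the 79.2 to 84.5% of the other 10 lists. In the other 5 pairs the mean difference over these genes lay between -1.58 and 2.51 points. Members lower by at least 25 points numbered 11 of 87, and none was higher by as much. Of all genes, 839 (3.88%) were lower and 453 (2.09%) higher by 25 points. The median gene had 2.54% in the control list and could not fall by 25 points, so these shares are not alike. Genes with as much coverage as this list were not set beside it. Cdx2, a trophoblast and gut regulator, had 27.1% in the cKO list and 86.6% in the control list, and 77.3 to 100% in the other 10 lists. Sox9, a chondrocyte and epithelial factor, had 33.9% in the cKO list and 79.5% in the control list. Foxd3, a neural crest factor, had 31.8% and 76.5% in those lists, and Sox2, a stem cell factor, 51.5% and 92.7%. In the other 5 pairs Cdx2 averaged -5.23 ± 13.2 points and Sox2 2.07 ± 15.5 points (SD, n = 5), and neither was called there (limma adjusted p = 0.60 and 0.89). The difference varied with distance from the start, for 57 autosomal members with a listed start. At 5 kb downstream, which is past the end of short genes, 63.2% lay inside a peak in the cKO list and 82.5% in the control list. In both lists of the Pdgfra-Cre pair 86.0% did. At the start itself the shares were 75.4% in the cKO list and 78.9% in the control list. They were 61.4% and 77.2% in those lists 1 kb before it. Further upstream the direction varied between neighbouring points. The shares were 80.7% in the cKO list and 86.0% in the control list 10 kb before the start, but 89.5% and 80.7% 11 kb before it.

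**Figure D4:**
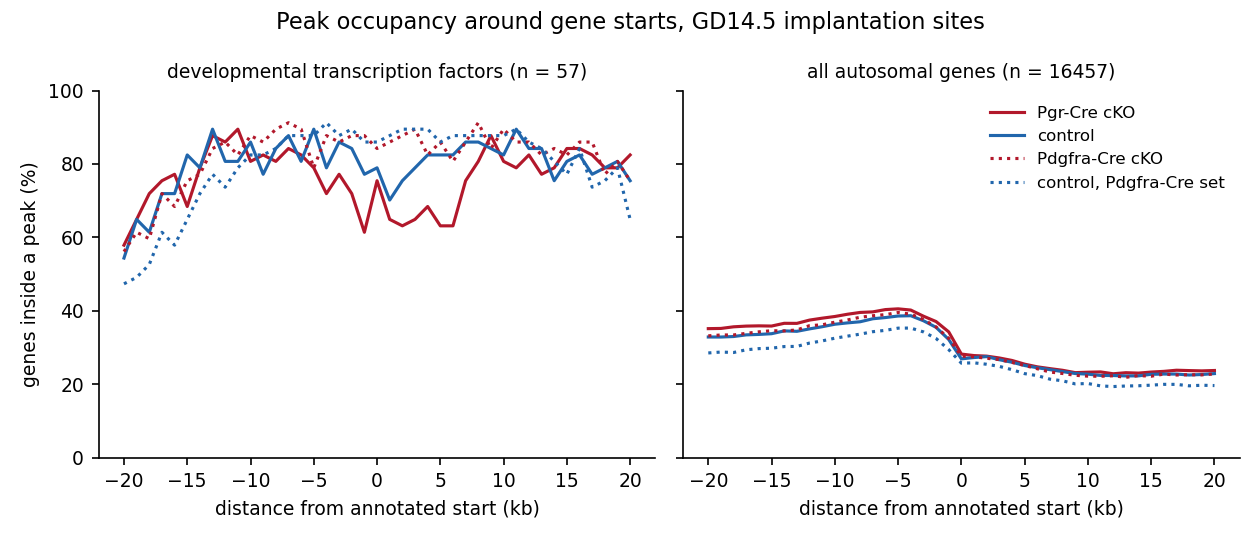
Percent of genes inside an H3K27me3 peak by distance from the annotated start, for 57 developmental transcription factor genes and for 16457 autosomal genes, in the 4 lists of GD14.5 IS. Around the starts of the first set the Pgr-Cre cKO line lies below the other 3, at 63.2% against 82.5% in the control list 5 kb downstream, and over all genes the lines differ little.

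Whether any gene set this pair apart was tested with limma as the difference of this pair from the other 5, with the lone pair assumed to vary like the others. Of 10205 genes, 0 (0%) were higher and 0 (0%) lower at an adjusted p under 0.05, with 317 higher and 438 lower at an unadjusted p under 0.05. At equal covered length limma called 3 of 8887 genes (0.0338%) higher and 18 (0.203%) lower. Mymx, Fezf1 and Zcchc13 among these calls had no spread at all in the other pairs. Of the 18, 4 belong to the transcription factor list, which are Dlx1, Foxa1, Pax9 and Pitx1, named here after their values were seen. The list had 81 members tested at equal length. There Foxa1, a pioneer factor of endoderm, had 29.7% in the cKO list and 92.6% in the control list. It differed by -1.88 ± 3.64 points in the other pairs (SD, n = 5). Dlx1, a forebrain and limb homeobox gene, had 58.0% in the cKO list and 100% in the control list at equal length. It differed by 0.88 ± 1.97 points in the other pairs (SD, n = 5). As deposited, Dlx1 had 95.6 to 100% in the other 11 lists and Foxa1 87.3 to 100%. Coverage so near its ceiling can vary little, so these calls rest on a narrow spread. The fit as deposited could also miss differences. In simulated data with the spreads of the other 5 pairs, it recovered 48% of genes shifted by 40 points and 84% of those shifted by 80.

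Hox genes showed no common direction. Of 39, 18 had a positive and 12 a negative difference, with a median of 0. Hoxc6 had 49.8% in the cKO list and 19.6% in the control list, and Hoxa2 38.1% and 8.08% in those lists. At equal covered length Hoxc6 differed by -7.69 points and Hoxa2 by 0, and against the control list of the Pdgfra-Cre set Hoxa2 differed by -5.38. Hoxc13 had 64.8% in the cKO list and 91.6% in the control list. Hoxc10 had 93.5% in the cKO list and 69.6% in the control list as deposited, but a difference of -69.6 points at equal covered length. Of 49 Wnt, BMP and hedgehog genes, 32 had a positive and 9 a negative difference, with a median of 2.26 points and none past 25. This balance was not kept at equal covered length, where their median was 0 and their mean 0.468 points, against a mean of 3.34 as deposited. Imprinted genes had 22 positive and 9 negative differences of 37, led by Magel2 at 77.2% in the cKO list and 50.9% in the control list. Their mean difference was 4.39 points as deposited and 2.06 at equal covered length, where the median was 0.

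X-linked genes had less of the mark as a group. The 966 had a median difference of -12.3 points, 687 negative and 152 positive, and 349 lower by at least 25 points. Cylc1, a sperm head protein gene, had no peak in the cKO list and 76.2% in the control list. Tmem185a had 19.8% in the cKO list and 93.7% in the control list. Fundc1, a receptor for removal of mitochondria, had 30.5% in the cKO list and 83.1% in the control list, and Hccs, the enzyme that attaches heme to cytochrome c, 18.4% and 69.4% in those lists. Ap1s2, a clathrin adaptor subunit, and Gpr34, a lipid receptor of microglia, differed by -52.8 and -51.8 points. The remaining named losses, Xlr3b and Cldn34b4, had 22.4% and 30.1% in the cKO list, against 78.4% and 81.7% in the control list.

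**Figure D5:**
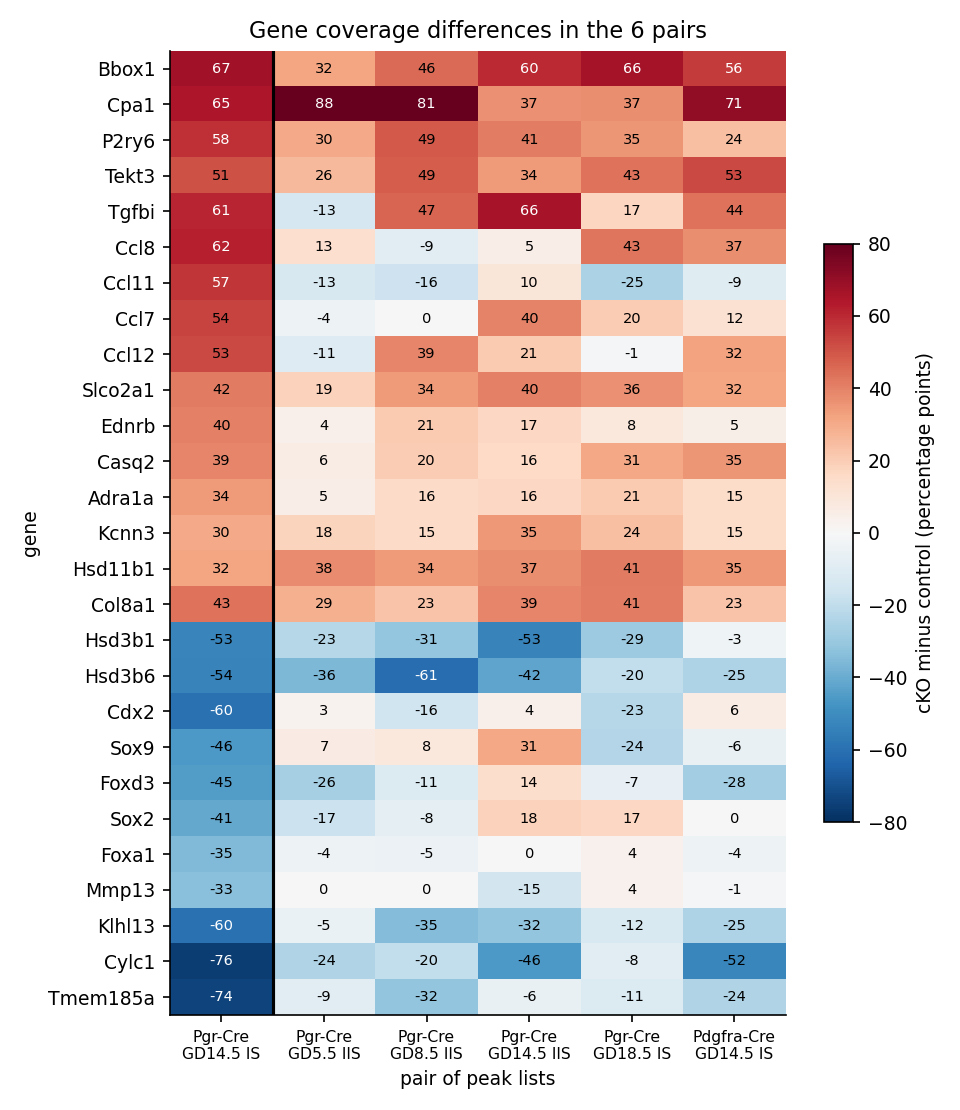
Coverage difference, cKO minus control in percentage points, of the genes shown as rows in the Pgr-Cre GD14.5 IS pair (left column) and the other 5 pairs. Bbox1, Slco2a1 and Hsd11b1 are higher in all 6 pairs, whereas Cdx2 differs by -59.5 in the first column and by -5.23 on average in the others.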

How the data were processed

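H3K27me3 CUT&RUN libraries were aligned to mm10 with STAR 2.7.5c and handled with samtools 1.10, Picard and bedtools 2.29.1, and macs2 2.2.7.1 was used for broad peaks, per the submitters' processing notes. The deposited peak lists give each peak's fold over background (a ratio) and its -log10 p and -log10 q, as MACS2 writes them, per the labels. A list holds the 3 pooled samples of its group. Inputs and the B6CBAF1/J lists were not used in the steps below.

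Peaks on chromosomes 1 to 19 and X were merged, and the percent inside them was computed for 21631 RefSeq (GRCm38.p6) protein-coding gene spans with 2 kb on either side and for 10-kb bins. Coordinates are counted from 1. Paired differences, for genes whose coverage averaged 5% or more, were fitted with limma 3.58.1 in R 4.3.3, with Benjamini-Hochberg adjustment. The fits were tested on simulated data. Pairs of lists were taken as independent, which the titles do not state. The samples of a group carry no stated animal, so the spread over pairs may be partly technical.

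Equal covered length kept each list's best peaks by p until they reached 80% of the shortest list. Other alternatives varied the p and q thresholds, flanks, bins, joining of peaks, control list, filter and pairs used. Named genes were the 12 largest gains and 12 largest losses past 50 points under both measures with a window of at least 10 kb (5 and 9 qualified), up to 4 members of each of 20 lists, Kdm6b, Pgr and Pdgfra, and genes in the 6 longest runs each way. A result that these rules name is not reported here. Members and lists were chosen with earlier results of these data known. Tables were made in pandas 2.3.3 and numpy 2.4.6 under python 3.11.15, and plots in matplotlib 3.10.9.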

Additional observations from a re-analysis of the deposited data

How the results depend on the processing

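Total covered length, equal by construction at equal covered length, turned to a log2 ratio of -0.090 at a -log10 p of at least 1 and was 0.28 against the control list of the Pdgfra-Cre set. The X ratio was -1.22 at equal covered length and -1.13 at a -log10 p of at least 1, and the strong-peak ratio -3.68 where the -log10 q was 3 or more and -6.89 without strong peaks found in all 12 lists, an alternative chosen after the data were seen. Gained genes numbered 94 at equal length, 89 at a -log10 p of at least 1, 104 with peaks under 1 kb apart joined, 0 at a -log10 q of 2 or more, 133 without flanks, 20 with 5-kb flanks, 455 in 2 kb around starts, 99 against the Pdgfra-set control and 453 at 25 points. Lost genes numbered 338 with joined peaks, 349 at a -log10 q of 2 or more, 343 without flanks, 409 around starts, 839 at 25 points and 105 on autosomes alone, also chosen later. Gained bins numbered 7929 with joined peaks, 2 at a -log10 q of 2 or more, 7839 against the Pdgfra-set control and 21162 at 25 points, and 281 of 50 kb. Lost bins numbered 6528 at equal length, 6800 at a -log10 p of at least 1, 5624 with joined peaks, 1439 at a -log10 q of 2 or more, 15294 at 25 points, and 302 of 50 kb. In the other 5 pairs limma raised 78 and lowered 91 genes at equal length and 49 and 10 with no filter on low coverage, and lowered 558 with the median subtracted. Leaving out a pair gave 0 to 156 raised and 0 to 203 lowered. The pair differed from the others at 3 and 18 genes at equal length and at 263 and 102 without the filter, where genes with no spread enter. It stayed at 0 higher and 0 lower with each pair left out. The causes were not tested. Of the 28 named genes past 50 points, 16 stayed past it at equal length. Most of the 16 had to, because genes named by size were required to pass under both measures. Among the rest only Ccl7 and Ccl11 stayed, and Ccl8, Hsd3b6, H2al3 and H2ap had a difference of 0 there. Against the Pdgfra-set control 23 of the 28 stayed, and none changed sign. Of the 20 list medians, 7 moved at equal length and 6 against that control. No paired analysis was possible because the 2 groups share no replicate number and are pooled into 1 list each. Read depth is not known, so it sets an unmeasured limit on every value.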
